A study of Mus musculus with 6 samples.

Results

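The genes described here are 10 enzymes that use arginine or the molecules made from it: the arginases Arg1 and Arg2, the nitric oxide synthases Nos2 and Nos3, the citrulline-recycling enzymes Ass1 and Asl, ornithine aminotransferase Oat, and the polyamine enzymes Odc1, Srm and Sat1. They were chosen by function, with the fold changes of the contrast described here already known, and taken by symbol from a table of 16763 genes; all 10 were found in it. RNA had been sequenced from tumors raised in BALB/c mice with 4T1, a carcinoma cell line of the mammary gland from the same strain. The animals are labelled male. The model group (3 libraries) has no treatment named in its labels, and the DMDD liposome group (3 libraries) was given DMDD carried in lipid vesicles. Neither the dose, the schedule, the age of the animals nor an empty-liposome control is given in the labels, and DMDD is named only by that abbreviation. The labels do not say which mouse gave which library, so the spread between libraries may not be that between animals. The comparison asked how this branch of metabolism differed in transcript level between the groups.

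Arginine can be split by arginase into ornithine and urea, or oxidised by a nitric oxide synthase into citrulline and nitric oxide. Ornithine is the starting point of the polyamines (putrescine, spermidine and spermine), small positively charged molecules that dividing cells need, and of proline by way of Oat. Myeloid cells in tumors are known for both branches: Arg1 is typical of macrophages exposed to interleukin-4 or interleukin-13, and Nos2 of macrophages exposed to bacterial products and interferon-gamma.

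The widest differences among the members were those of 2 genes, Arg1 and Nos2. Arg1 was higher in every DMDD liposome library than in any model library, and Nos2 had the lower mean there, so that the ratio of Arg1 to Nos2 stood at 2.41 to 14.4 in model and 33.4 to 55.9 in DMDD liposome. The other 8 members differed by less than 0.5 on the log2 scale. Since the choice of members was made with these values known, their fold changes are descriptions. Over all 12891 genes tested, edgeR's quasi-likelihood test with Benjamini-Hochberg adjustment called 0 genes (0%), and among the 10 members, all of which passed the filter on low counts, it therefore called 0 (adjusted p from 0.644 to 0.997). At an unadjusted p under 0.05 it found 1 member, Arg1, beside 7.65% of all tested genes. DESeq2 called 0 of the 10, beside 0.408% of the genes with an adjusted p in its fit. The authors' deposited table also called 0 of the 10, beside 0.346% of its genes.

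RefSeq promoter windows (GRCm38.p6) were held for 4 of the 10 members, Oat, Sat1, Ass1 and Odc1, and not for Arg1, Arg2, Nos2, Nos3, Asl and Srm. The first 2 sequences are the 250 bases before the start of Oat, the only 1 of these 4 whose groups did not overlap, and of Sat1, whose groups overlapped. The last 2 are 30-base stretches of Ass1 and Odc1, each centred on the motif that is marked in it; that of Odc1 also holds a GC box, left in lower case. Capitals mark matches to CCAAT or its reverse complement ATTGG in Oat, to GGGCGG or its reverse complement CCGCCC (the GC box) in Sat1, to CACGTG (the E-box) in Ass1 and to TGACG (the core of the cyclic AMP response element) in Odc1. All are written 5′ to 3′ on the gene's strand.
Oat, chr7:132576399-132576648, minus strand: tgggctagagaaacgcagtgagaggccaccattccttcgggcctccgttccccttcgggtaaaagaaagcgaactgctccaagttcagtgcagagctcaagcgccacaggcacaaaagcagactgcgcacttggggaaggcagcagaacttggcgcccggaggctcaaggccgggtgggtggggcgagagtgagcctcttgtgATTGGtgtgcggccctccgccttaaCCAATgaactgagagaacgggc
Sat1, chrX:155216450-155216699, minus strand: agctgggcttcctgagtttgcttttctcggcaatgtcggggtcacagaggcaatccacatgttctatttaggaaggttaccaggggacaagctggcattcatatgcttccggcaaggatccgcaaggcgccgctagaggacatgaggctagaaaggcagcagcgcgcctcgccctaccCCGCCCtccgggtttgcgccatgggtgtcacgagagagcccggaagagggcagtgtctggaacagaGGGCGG
Ass1, chr2:31470222-31470251, plus strand: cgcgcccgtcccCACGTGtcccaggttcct
Odc1, chr12:17544782-17544811, plus strand: gccccgccccacTGACGcgcccggcccgcg

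Both strands were searched for these 4 motifs and for TATAA, with overlapping matches counted. Oat held 2 matches to CCAAT, at 47 to 43 and 22 to 18 bases before the start, a motif found in 33.8% of all 32851 windows of 250 bases. Sat1 held 2 GC boxes, 1 of them ending at the base before the start, and Odc1 held 4, in a window of 80.0% G and C, where the median over all windows was 52.4%. Ass1 held 1 GC box, at 63 to 58 bases before the start and outside the stretch printed. GC boxes were present in 32.7% of windows. The single E-box of Ass1 lay 36 to 31 bases before the start, and 6.02% of windows held that motif. The TGACG of Odc1 lay 79 to 75 bases before the start (17.8% of windows held it), and none of the 4 windows held TATAA (22.8% of windows did). These matches describe letters in the windows and were not measured as binding sites.

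Levels of different genes were compared per length, in the FPKM deposited by the authors, which are counts scaled to the gene length and to the library total. Averaged over the 6 libraries, Arg1 stood highest at 214 ± 155 FPKM (SD, n = 6), a level above that of 98.3% of tested genes. Sat1 followed at 98.5 ± 16.4 FPKM and Odc1 at 92.1 ± 13.6 FPKM. This order was not firm at the top: Arg1 exceeded Sat1 in 5 of 6 libraries and Sat1 exceeded Odc1 in 4 of 6. Srm stood at 61.4 ± 8.93 FPKM and Oat at 52.3 ± 6.92 FPKM, and Srm was above Oat in all 6 libraries. Ass1 (19.0 ± 3.57 FPKM), Nos2 (14.3 ± 13.9 FPKM) and Asl (13.5 ± 0.773 FPKM) came next. Ass1 was above Asl in all 6 libraries, but Nos2 had no fixed place: Ass1 was above it in 5 of 6 libraries, and it was above Asl in 1 of 6. Arg2 at 7.63 ± 2.01 FPKM and Nos3 at 2.64 ± 0.692 FPKM were the lowest, and Arg2 was above Nos3 in all 6. Arg1 and Nos2 were the most variable members. The SD of log2 CPM (counts scaled to the library total) over the 6 libraries was 1.44 for Arg1 and 1.21 for Nos2. These were larger than that of 99.2% and 98.7% of tested genes, and they include the difference between the groups. For Asl the SD, at 0.0816, was larger than that of 5.34%.

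**Figure D1:**
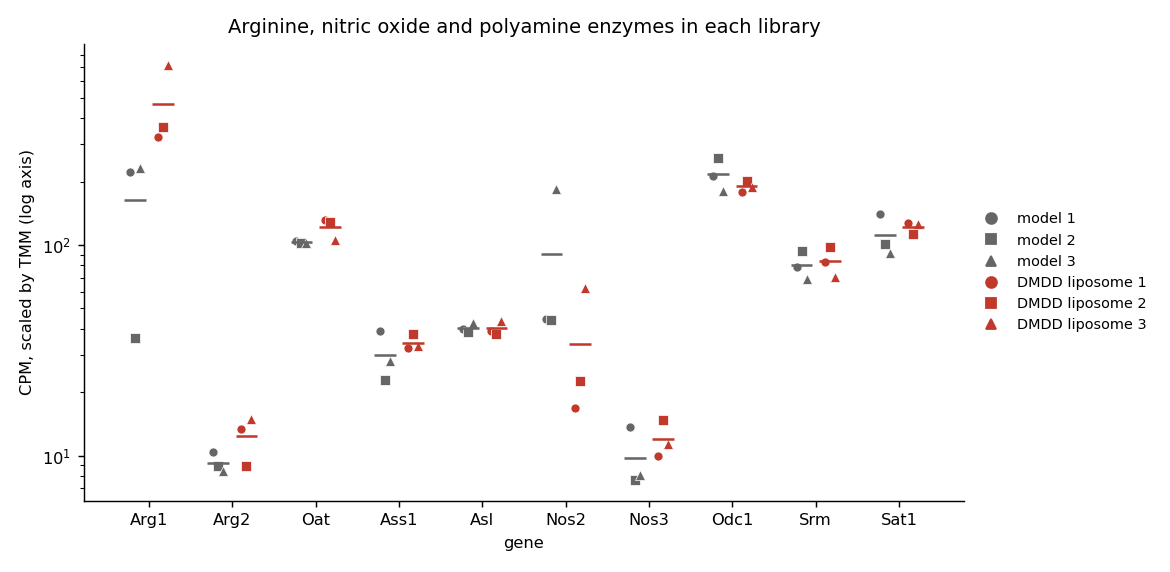
CPM (counts scaled to the library total by TMM, log axis) of the 10 members in each library, with grey for model, red for DMDD liposome, a symbol for each replicate number and a bar at each group's mean over 3 libraries. Arg1 and Nos2 spread over more than their neighbours, with model replicate 2 lowest for Arg1 (36.4 CPM) and model replicate 3 highest for Nos2 (183 CPM).

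Arg1, the arginase of the urea cycle and of myeloid cells, measured 222, 36.4 and 232 CPM in model replicates 1 to 3, as against 324, 362 and 716 CPM in DMDD liposome replicates 1 to 3. The groups did not overlap, model replicate 2 lay far below the other libraries, and DMDD liposome replicate 3 far above them. The means were 163 ± 110 CPM and 468 ± 216 CPM (SD, n = 3 each), which gave a log2 fold change of 1.52 ± 0.64 (SE). It was 1.04 without model replicate 2 and 1.07 without DMDD liposome replicate 3. Of all tested genes, 1.21% had a larger change in either direction, and the groups failed to overlap for 12.9% of them. Model replicate 2 was also the library that held skin keratinocyte genes, with 227 CPM summed over 10 markers against 5.52 to 7.10 CPM in each of the others; the part of this in the Arg1 value was not tested.

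Arg2, the mitochondrial arginase found in many tissues, measured 10.4, 8.96 and 8.47 CPM in the model libraries, as against 13.5, 8.91 and 14.99 CPM in the DMDD liposome libraries. DMDD liposome replicate 2 lay among the model libraries and the other 2 above them, giving a log2 fold change of 0.42 ± 0.24 (SE). Exons of Arg2 overlap those of Vti1b on the opposite strand in the GENCODE M21 annotation, and no strand setting is known, so some reads cannot be assigned with certainty. Measured per length, Arg1 was the predominant arginase in all 6 libraries. Its FPKM was 20.6, 3.92 and 26.5 times that of Arg2 in the model libraries, as against 23.3, 39.3 and 46.2 times in the DMDD liposome libraries. These ranges overlapped.

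Nos2, the inducible nitric oxide synthase, measured 44.7, 43.9 and 183 CPM in model replicates 1 to 3, as against 16.9, 22.6 and 62.3 CPM in DMDD liposome replicates 1 to 3. Replicate 3 was the highest of its group in both groups, and DMDD liposome replicate 3 lay above model replicates 1 and 2, so the groups overlapped. The means were 90.7 ± 80.4 CPM and 33.9 ± 24.7 CPM (SD, n = 3 each), which gave a log2 fold change of -1.42 ± 0.69 (SE). Model replicate 3 carried much of it: without that library the value was -0.40, and without DMDD liposome replicate 3 it was -2.20. A larger change in either direction was seen in 1.46% of tested genes.

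Nos3, the endothelial nitric oxide synthase, measured 13.6, 7.67 and 8.08 CPM in the model libraries, as against 9.99, 14.7 and 11.3 CPM in the DMDD liposome libraries. The groups overlapped, with model replicate 1 among the higher libraries, and the log2 fold change was 0.30 ± 0.28 (SE), with 0.61 without model replicate 1 and 0.12 without DMDD liposome replicate 2. Exons of Nos3 overlap those of Atg9b on the opposite strand in GENCODE M21. Atg9b had 570 to 1339 counts per library against 119 to 195 for Nos3, so the level of Nos3 is uncertain. The summed level of 12 markers of endothelial cells, which line vessels, ran from 452 to 709 CPM in model and from 610 to 720 CPM in DMDD liposome, and 10 of the 12 had positive log2 fold changes, with a median of 0.38. Nos3 equalled 1.41% to 1.93% of that sum in the model libraries, as against 1.64% to 2.05% in the DMDD liposome libraries, and these ranges overlapped. The part of endothelial cells in the value of Nos3 was not tested.

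The ratio within a library removes its depth and scaling from the comparison. The ratio of Arg1 to Nos2, in FPKM, was 14.4, 2.41 and 3.68 in model replicates 1 to 3, as against 55.9, 46.6 and 33.4 in DMDD liposome replicates 1 to 3. Every DMDD liposome library was above every model library, with model replicate 1 the nearest. The mean log2 ratio was 2.33 ± 1.35 in model and 5.47 ± 0.38 in DMDD liposome (SD, n = 3 each), a difference of 3.14, or 8.80-fold. With 1 library left out at a time the difference ran from 6.09-fold (without model replicate 2) to 14.9-fold (without model replicate 1). For background, the ratio of any other tested gene to Nos2 was higher in DMDD liposome with no overlap for 3.60% of 12890 genes. The ratio of Arg1 to another tested gene was so for 74.0% of 12856 genes with a value in every library. The ratio of Nos3 to Nos2 overlapped between the groups, at 0.0458 to 0.317 in model and 0.189 to 0.678 in DMDD liposome, and Nos2 was the higher of the pair in all 6 libraries.

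**Figure D2:**
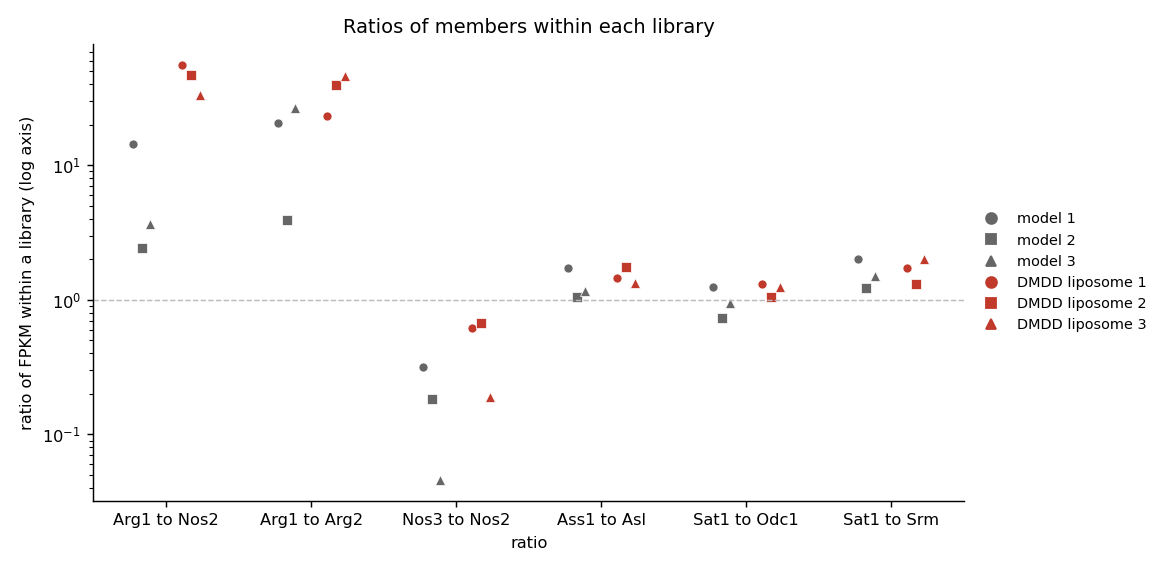
FPKM ratio of pairs of members within each library (log axis), with grey for model, red for DMDD liposome, a symbol for each replicate number and a dashed line at 1. Arg1 to Nos2 is the pair whose groups do not overlap, at 2.41 to 14.4 in model and 33.4 to 55.9 in DMDD liposome.

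Ass1 and Asl, which rebuild arginine from citrulline in successive steps, differed little. Ass1, the slower step, measured 38.9, 22.9 and 28.0 CPM in the model libraries, as against 32.4, 37.9 and 33.0 CPM in the DMDD liposome libraries. Model replicates 2 and 3 were the lowest and model replicate 1 the highest, so the groups overlapped (log2 fold change 0.20 ± 0.20, SE). Without model replicate 1 it was 0.44, and without model replicate 2 it was 0.04. Asl, which releases arginine, was the steadiest member, at 39.8, 38.6 and 42.4 CPM in model, as against 39.1, 38.0 and 43.8 CPM in DMDD liposome. Its group means were 40.3 ± 1.97 CPM and 40.3 ± 3.09 CPM (SD, n = 3 each), and the sign of its log2 fold change of 0.0018 turned with the scaling. The FPKM ratio of Ass1 to Asl ran from 1.04 to 1.72 in model and from 1.33 to 1.76 in DMDD liposome, and these ranges overlapped.

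Oat, which passes ornithine to proline and glutamate, was the second member whose groups did not overlap. It measured 104, 102 and 102 CPM in the model libraries, as against 132, 129 and 105 CPM in the DMDD liposome libraries. DMDD liposome replicate 3 was within 1 CPM of model replicate 1, and the other 2 DMDD liposome libraries stood clear. The means were 103 ± 1.16 CPM and 122 ± 14.7 CPM (SD, n = 3 each), which gave a log2 fold change of 0.24 ± 0.11 (SE), and 33.0% of tested genes had a larger change. The members whose groups did not overlap thus numbered 2 of 10, beside 12.9% of all tested genes in either direction. Both were higher in DMDD liposome, where 7.21% of all tested genes lay in that way.

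The polyamine enzymes lay within a narrow range. Odc1, ornithine decarboxylase, makes putrescine and commits ornithine to this pathway. It measured 212, 259 and 181 CPM in the model libraries, as against 179, 201 and 189 CPM in the DMDD liposome libraries. The groups overlapped, with model replicate 2 the highest, and the log2 fold change of -0.20 ± 0.14 (SE) went to -0.06 without that library. Srm, spermidine synthase, measured 78.7, 93.6 and 69.0 CPM against 83.1, 98.3 and 70.9 CPM, with a log2 fold change of 0.06 ± 0.16 (SE) whose sign turned when model replicate 3 or DMDD liposome replicate 2 was left out. In both groups replicate 2 was the highest for Srm and replicate 3 the lowest. Sat1, which acetylates spermidine and spermine for breakdown or export, measured 141, 101 and 91.1 CPM against 127, 113 and 125 CPM. Model replicate 1 was the highest library for Sat1 and the other 2 model libraries the lowest, with a log2 fold change of 0.13 ± 0.17 (SE) that reached 0.34 without model replicate 1 and turned sign, at -0.0052, without model replicate 3.

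Transcripts of the breakdown enzyme Sat1 were also compared within libraries with those of the synthesis enzymes Odc1 and Srm. The activity of these enzymes was not measured. The FPKM ratio of Sat1 to Odc1 was 1.24, 0.731 and 0.941 in the model libraries, as against 1.32, 1.05 and 1.24 in the DMDD liposome libraries. Sat1 was below Odc1 in model replicates 2 and 3 and above it in the other 4 libraries, and the groups overlapped. The ratio of Sat1 to Srm ran from 1.23 to 2.03 in model and from 1.30 to 2.001 in DMDD liposome, so that these ranges nearly coincided. Of the 6 ratios examined, 1 separated the groups, that of Arg1 to Nos2.

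**Figure D3:**
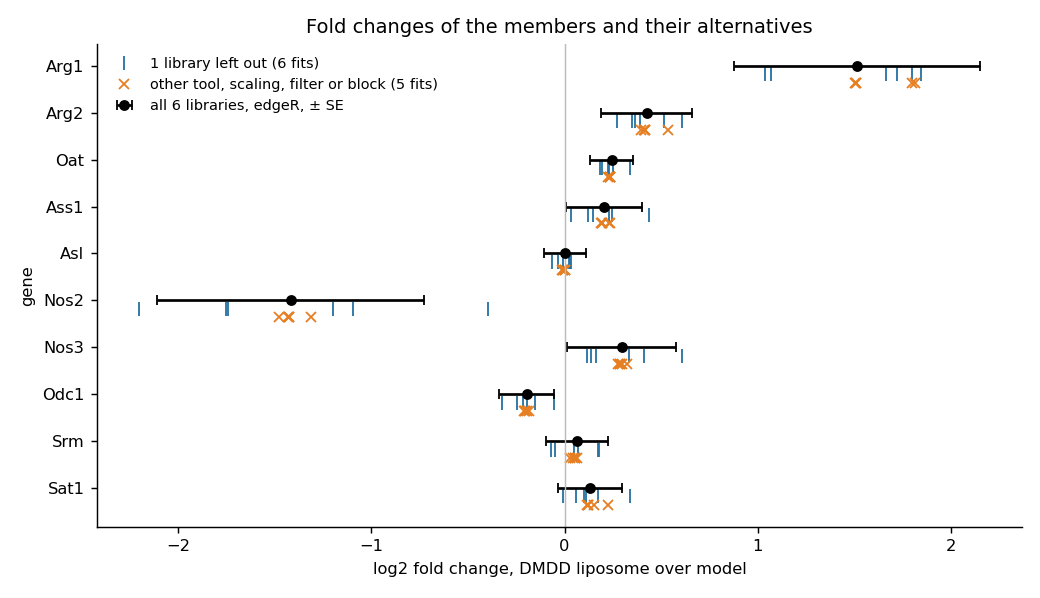
Log2 fold change of each member, DMDD liposome over model, with all 6 libraries (black, ± SE), with each library left out in turn (blue ticks) and with another tool, scaling, filter, weighting or replicate block (orange crosses). Arg1 stays between 1.04 and 1.85 and Nos2 between -2.20 and -0.40, while Asl, Srm and Sat1 sit at 0 within their errors.

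The wider pathway was read from lists of 61 genes chosen for function, of which 56 were in the table and 51 were tested, the 10 members included. Positive log2 fold changes numbered 31 of 51 and negative ones 20, with a median of 0.07, beside 51.2% positive and a median of 0.01 over all tested genes. None of the 51 was called by edgeR, by DESeq2 or in the authors' deposited table. At an unadjusted p under 0.05 edgeR found 4 (7.84%, beside 7.65% of all tested genes), and the groups failed to overlap for 9 (17.6%, beside 12.9%). The share with a small p was thus at the background.

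Transport of arginine into cells held 2 of those 4. Slc7a1, the general cationic amino acid transporter, measured 92.3, 85.3 and 92.7 CPM in the model libraries, as against 71.9, 78.6 and 65.6 CPM in the DMDD liposome libraries. All DMDD liposome libraries were below all model libraries, with a log2 fold change of -0.32 ± 0.10 (SE). Slc7a2, an inducible transporter of the same family, measured 12.2, 5.09 and 9.52 CPM against 10.8, 13.7 and 40.0 CPM. Its log2 fold change of 1.27 ± 0.54 (SE) had the sign of that of Arg1, its groups overlapped, and its extremes were the same libraries as those of Arg1: model replicate 2 the lowest and DMDD liposome replicate 3 the highest. Exons of Slc7a2, and likewise of Azin1, overlap a predicted gene on the opposite strand in GENCODE M21, so their counts carry that uncertainty. The transport list of 5 genes had a median of 0.49, with 4 positive.

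Arginine catabolism and ornithine use, 9 tested genes with Arg1, Arg2 and Oat among them, had 7 positive and a median of 0.24. Pycr1, which makes proline from the product of Oat, measured 3.30, 3.22 and 2.76 CPM in model, as against 5.03, 5.36 and 3.48 CPM in DMDD liposome. The groups did not overlap (log2 fold change 0.58 ± 0.28, SE). Aldh4a1, the mitochondrial enzyme that turns the same intermediate into glutamate, was at 0.45 ± 0.24 (SE), from 4.33 ± 0.50 CPM to 5.93 ± 0.88 CPM, also without overlap. Slc25a15, which carries ornithine into mitochondria, belongs to the citrulline and urea cycle list (4 of 4 tested genes positive, median 0.14) and stood at 0.26 ± 0.19 (SE), its groups separated by less than 0.1 CPM. Otc, which joins ornithine to carbamoyl phosphate in liver, had 2 counts in all and was not tested.

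The nitric oxide list of 12 tested genes had 7 positive and a median of 0.07, and Nos2 was its extreme. Gch1, which begins the making of the cofactor tetrahydrobiopterin that nitric oxide synthases need, stood at 0.33 ± 0.19 (SE), opposite in sign to Nos2. Ddah1 and Ddah2 break down the natural synthase inhibitor dimethylarginine. Ddah1 measured 44.2 CPM in DMDD liposome replicate 2 and 16.8 to 20.5 CPM in the other 5 libraries, so its log2 fold change of 0.53 ± 0.36 (SE) rested on that library. Ddah2 stood at 0.27 ± 0.17 (SE), and the groups of all 3 genes overlapped. Gch1, Ddah1 and Ddah2, like Oaz1, Oaz2, Azin2 and Amd1, were picked for their roles after their values were seen. Nos1, the neuronal synthase, had 16 counts in all 6 libraries and was not tested.

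Polyamine synthesis and its regulators, 14 tested genes, had 5 positive and a median of -0.04. Azin1, an inhibitor of antizyme that spares Odc1 from degradation, measured 115, 110 and 124 CPM in model, as against 138, 157 and 125 CPM in DMDD liposome, for a log2 fold change of 0.26 ± 0.11 (SE). Its groups were separated by about 1 CPM, between model replicate 3 and DMDD liposome replicate 3. Oaz1 and Oaz2, the antizymes, stood at 0.03 and 0.06, and Azin2, another antizyme inhibitor, at -0.65 ± 0.39 (SE) with overlapping groups. Amd2, a copy of the S-adenosylmethionine decarboxylase gene that is nearly identical to Amd1, stood at -0.22 ± 0.17 (SE) without overlap. The split of reads between these copies is uncertain, and Amd1 stood at -0.12. Breakdown and transport, 7 tested genes, had 4 positive and a median of 0.13.

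**Figure D4:**
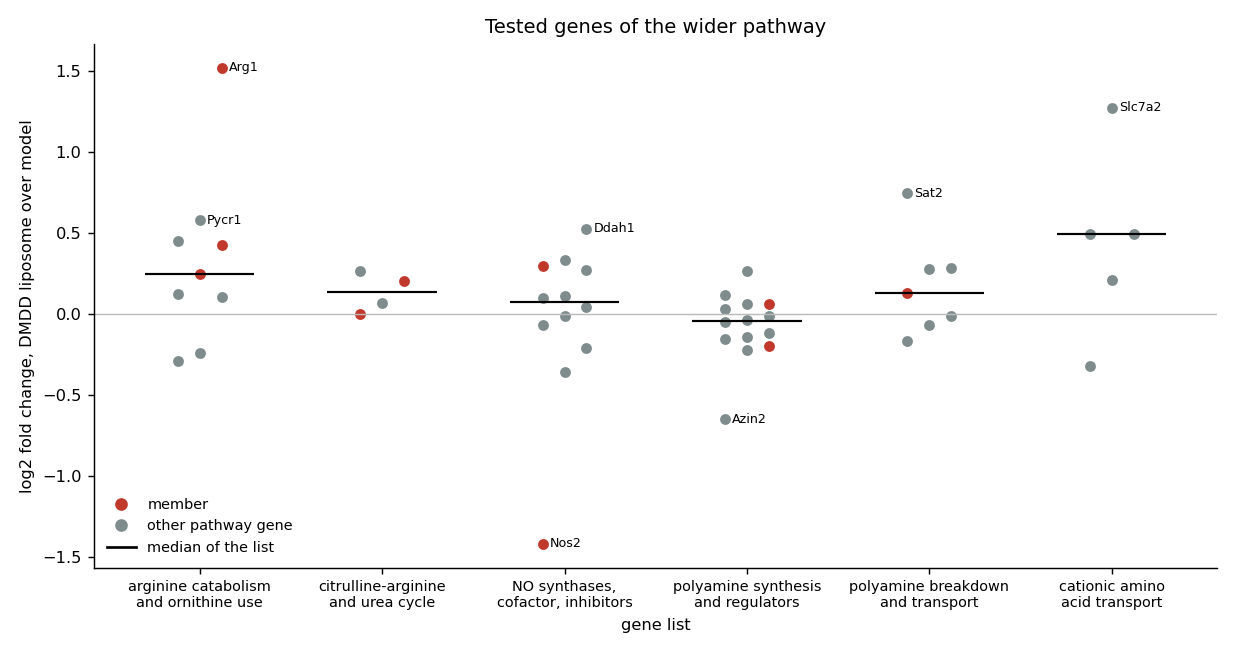
Log2 fold change, DMDD liposome over model, of the 51 tested pathway genes in 6 lists, with members in red, other genes in grey, a line at each list's median, and names for genes beyond 0.5 in either direction. Arg1 (1.52), Slc7a2 (1.27) and Nos2 (-1.42) lie apart from lists whose medians run from -0.04 to 0.49.

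Because whole tumors were sequenced, fewer cells of a type and less RNA per cell cannot be told apart, and Arg1 and Nos2 are made by several cell types. Epithelial tumor cell markers were present in every library, at 4283 to 7178 CPM in model and 3910 to 4889 CPM in DMDD liposome, summed over 12 genes. Of the 12, 10 had negative log2 fold changes, with a median of -0.58. DESeq2 called 1 of them lower, Cldn7, as did the authors' deposited table, for which the submitters' notes name DESeq2 too, and edgeR called 0. Of 16 tested macrophage and monocyte markers, 12 had positive log2 fold changes, with a median of 0.43. Their summed level over 17 genes was 2927, 2363 and 1641 CPM in model replicates 1 to 3. It was 4098, 3022 and 3299 CPM in DMDD liposome replicates 1 to 3, so the groups did not overlap. Lyz2 held much of that sum, at 1017, 646 and 332 CPM in model and 1734, 1107 and 1111 CPM in DMDD liposome. It was the 1 tested marker of the list whose groups did not overlap. No marker of the list was at 0 in all libraries, and Retnla, a marker of interleukin-4 exposure, was near 0 in both groups (0.02 and 0.05 CPM on average). Others were not: in model and DMDD liposome Mrc1 averaged 183 and 155 CPM, and Mgl2 35.9 and 29.96 CPM. Chil3 averaged 2.71 and 9.30 CPM, with 23.8 CPM in DMDD liposome replicate 3. The 4 negative log2 fold changes were those of Mrc1 (-0.24), Mgl2 (-0.26), Ms4a7 (-0.42) and Cd163 (-0.54), opposite in sign to Arg1. Exposure of macrophages to interleukin-4 was not tested. Arg1 equalled 7.58%, 1.54% and 14.1% of that sum in the model libraries, as against 7.91%, 11.98% and 21.7% in the DMDD liposome libraries, and these ranges overlapped. Nos2 equalled 1.53%, 1.86% and 11.2% against 0.411%, 0.747% and 1.89%, and also overlapped.

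Neutrophils can hold Arg1 as well. Of 11 tested neutrophil markers, 5 had positive values and 6 negative, with a median of -0.02, and the sum over 12 genes ran from 489 to 616 CPM in model and from 524 to 814 CPM in DMDD liposome. S100a9, a calcium-binding protein of neutrophils, was the 1 marker of this list called by DESeq2 (adjusted p = 0.0438), lower in DMDD liposome. It was also called in the authors' deposited table, but the submitters' notes name DESeq2 too, so that call is not independent. Of this list edgeR called 0. No marker was at 0 in every library, though Ly6g averaged 0.35 and 0.63 CPM. Mmp9, a protease that other cells make too, held much of that sum, at 202 to 389 CPM in model and 362 to 603 CPM in DMDD liposome. Without it, a choice made after seeing the data, the other 11 markers summed to 287, 227 and 247 CPM in model. In DMDD liposome they summed to 162, 211 and 140 CPM, lower in every library. S100a8 and S100a9 averaged 65.8 and 102 CPM in model and 42.1 and 53.5 CPM in DMDD liposome, so the lower sum rested largely on them. Mmp8, Ngp, Ltf and Il1r2 had log2 fold changes of 0.03, 0.03, 0.21 and 0.03. Those of Csf3r, Cxcr2 and Retnlg were -0.32, -0.63 and -0.76. Arg1 equalled 5.90% to 45.3% of the sum with Mmp9 in the model libraries, as against 44.5% to 129% in the DMDD liposome libraries, and 16.0% to 94.0% as against 172% to 511% of the sum without it. DMDD liposome replicate 3, the highest library for Arg1 and Slc7a2, was also the highest for skeletal muscle markers, at 288 CPM summed over 10 genes, beside 149 and 34.6 CPM in DMDD liposome replicates 1 and 2 and 48.2 to 65.5 CPM in model. The part of these cell types in the values of Arg1 and Nos2 was not tested.

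**Figure D5:**
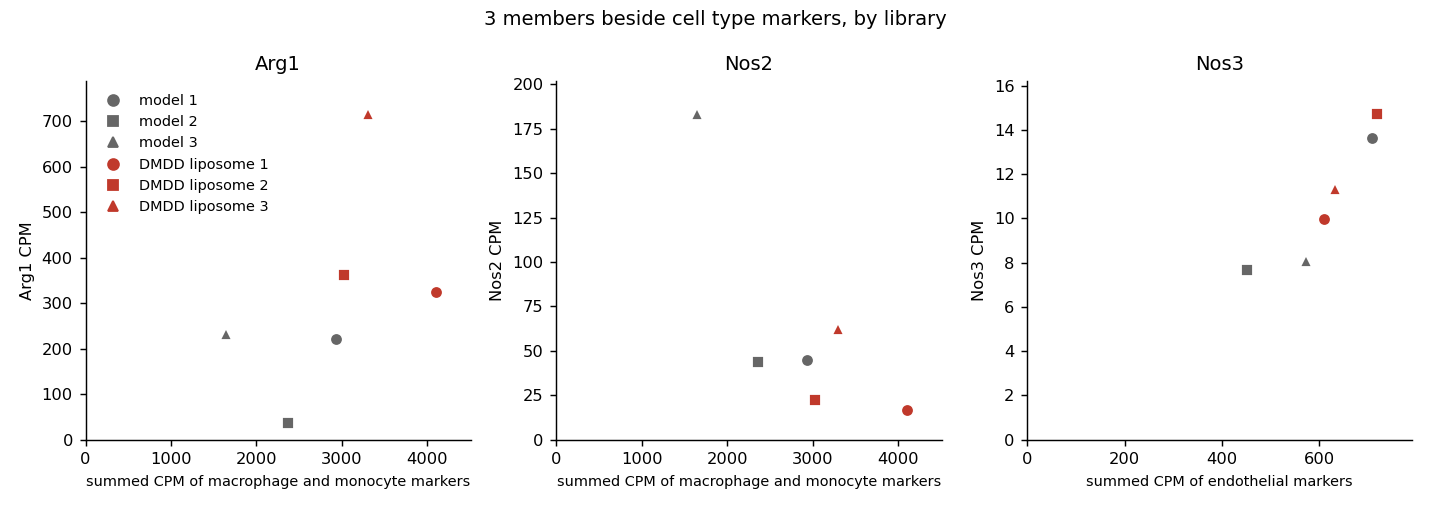
CPM of Arg1 and Nos2 against the summed CPM of 17 macrophage and monocyte markers, and of Nos3 against that of 12 endothelial markers, in each library (linear axes from 0; grey for model, red for DMDD liposome, a symbol for each replicate number). The DMDD liposome libraries lie to the right for macrophage markers (3022 to 4098 CPM against 1641 to 2927 CPM), with Nos2 highest in model replicate 3, the library lowest for those markers.

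The genes whose pattern lay nearest that of a member were found among 10814 other tested genes with a mean of at least 5 CPM, by the root mean square difference of log2 CPM centred on the 6 libraries. For Arg1 these were Myo5c, an unconventional myosin (0.60), Cilp2, a cartilage matrix protein (0.65), Hbb-bs, a beta globin of red blood cells (0.67), Slc7a2 (0.69) and Bmp2, a bone morphogenetic protein (0.72). All 5 were lowest in model replicate 2, as Arg1 was, and none spanned as wide a range in the DMDD liposome libraries except Slc7a2. For Nos2 the nearest were Cemip, a hyaluronan-degrading protein (0.35), Lipg, endothelial lipase (0.45), Il1rap, a subunit of interleukin-1 family receptors (0.49), Ano4, of the anoctamin family (0.49), and Wnt7a, a Wnt ligand (0.51). All 5 were highest in model replicate 3. Lipg, for example, measured 38.3, 51.0 and 370 CPM in the model libraries, as against 19.5, 22.2 and 47.8 CPM in the DMDD liposome libraries, an excess in model replicate 3 larger than that of Nos2.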

How the data were processed

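Tumor RNA for 6 libraries (3 model, 3 DMDD liposome) was isolated with Trizol reagent, and the library kit was NEBNext Ultra, as the labels state. The labels' descriptions call the animals rats, but the organism, strain and gene symbols are of mouse (16720 of 16763 symbols matched a mouse name table). The deposited table held raw counts of reads, per the file headers; a signal that the authors made by dividing counts by 1 size factor per library; the authors' FPKM values; and their deposited log2 fold change (model over DMDD liposome), p-values and adjusted p-values. The submitters' processing notes name DESeq2 and mm9. Which aligner, counter, annotation and strand setting were used is not given in the sources used here. RefSeq and GENCODE M21 are of another build, so they served only for promoter sequences, names and which genes overlap.

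The test of the counts was that of edgeR 4.0.16 under R 4.3.3 (filterByExpr, minimum count 10, minimum total 15; TMM; quasi-likelihood test, two-sided, Benjamini-Hochberg over all 12891 tested genes, threshold 0.05). Standard errors came from the quasi-likelihood F statistic, and log2 CPM used a prior count of 2. Totals ran from 13037500 to 15616840 counts per library, and 3 counts stood for 0.193 to 0.230 CPM. Each member had 922 to 26875 counts in all. Alternatives were DESeq2 1.42.0, its size factors in edgeR, no filter, a replicate block, limma-voom (limma 3.58.1) with sample weights, and leaving out each library. On simulated counts for these 12891 genes, edgeR recovered 53% of genes changed 2-fold and 87% of those changed 4-fold. Of its calls there, 3.45% were false, as against 18.0% of those of DESeq2. The counts were drawn from means and spreads that edgeR had estimated, so this gap does not rank the tools on the real counts. The changed genes were drawn at random, each with its own spread. Arg1 and Nos2 spread more than 99.2% and 98.7% of tested genes, so these rates do not hold for them.

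The members and all lists were chosen with earlier results of these data known. All members were named, as were other tested pathway genes with an unadjusted edgeR p under 0.05, a call by another tool, or groups without overlap at a mean of at least 1 CPM (at most 15), and the 5 genes nearest to Arg1 and to Nos2, predicted genes excepted. Marker lists for T cells, fibroblasts, fat, muscle and skin were also read. In each of these 5 lists the summed levels of the groups overlapped, with single libraries apart: T cell markers summed to 94.9, 21.2 and 74.3 CPM in DMDD liposome replicates 1 to 3 and 34.9 to 42.7 CPM in model, and fat cell markers to 128 CPM in DMDD liposome replicate 2 and at most 52.2 CPM elsewhere. Genes of the lists without a row in the table were not analysed here.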

Additional observations from a re-analysis of the deposited data

How the results depend on the processing

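The count of called genes was 0 of 12891 with edgeR and 59 with DESeq2's Wald test (31 higher, 28 lower), and without 1 library it ran from 0 to 112, the highest without model replicate 1. Called members and called pathway genes numbered 0 in all 11 alternatives, and 7 members (Arg1, Arg2, Nos2, Nos3, Ass1, Odc1, Oat) kept their sign in all 11. The log2 fold change of Asl turned from 0.0018 to -0.0065 with DESeq2 size factors, -0.0144 with no filter and -0.0063 with DESeq2, and without 1 library ran from -0.0631 to 0.0359 (-0.0067 without model replicate 1, -0.0352 without model replicate 2). Without 1 library Sat1 ran from -0.0052 (without model replicate 3) to 0.34, and Srm from -0.0708 (without DMDD liposome replicate 2; -0.0487 without model replicate 3) to 0.18. The 20 group means of the members moved by less than their SD with DESeq2 size factors. Without 1 library the log2 difference in the ratio of Arg1 to Nos2 ran from 2.61 to 3.897 (3.14 with all), that of Arg1 to Arg2 from 0.58 (without model replicate 2) to 1.96 (1.44 with all), and that of Sat1 to Srm turned from 0.09 to -0.08 without model replicate 2 and -0.05 without DMDD liposome replicate 3; the other 3 ratios kept their sign.

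The replicate numbers were not taken to pair the samples: deviations of same-numbered libraries from their group means correlated at 0.088, 0.11 and 0.12 across genes, and nothing in the labels ties a number to a shared animal or day. Every library did correlate best with its own number. A fit with the replicate block called 0 genes, 0 members and 0 pathway genes, with log2 fold changes of 1.80 for Arg1 (adjusted p = 0.452) and -1.31 for Nos2 (adjusted p = 0.241) in edgeR. The SE of Nos2 went from 0.69 to 0.15 with the block and its unadjusted edgeR p from 0.0765 to 0.000123. The share of all tested genes under an unadjusted 0.05 in that fit was not counted. Nos2 was chosen with its fold change known, so this p is a description.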
